A study of Mus musculus with 6 samples.

Results

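Genes that write or read N6-methyladenosine (m6A) were followed in single mouse oocytes. They were chosen by name, with earlier results of these data known. They are the rows of the count table with the symbols Mettl3, Mettl14, Ythdf1, Ythdf2, Ythdf3, Ythdc1, Ythdc2, Igf2bp1, Igf2bp2 and Igf2bp3, which are 10 of 25239 genes. All 10 were found. The table holds 6 libraries of oocytes at the germinal vesicle (GV) stage, before meiosis resumes. The oocytes came from female CD-1 mice (an outbred strain) aged 4 to 6 weeks. Complexes of an oocyte with its cumulus cells were microinjected with water (3 libraries) or with mixtures of phthalate metabolites, the breakdown products of plasticizers (3 libraries). Both groups were then cultured in maturation medium with serum and follicle-stimulating hormone and collected at the GV stage. The dose and the make-up of the mixture are not given in the sources used here. No uninjected group was analysed here, and the injection itself and the culture are shared by both groups.

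m6A is a methyl mark on adenosines inside messenger RNA. METTL3 and METTL14 form the methyltransferase core that places it, with METTL3 as the catalytic subunit and METTL14 as the partner that helps to bind RNA. Proteins with a YTH domain bind the mark: the YTHDF proteins in the cytoplasm, where they are known for promoting decay and influencing translation, YTHDC1 in the nucleus, where it acts on splicing, polyadenylation and export, and YTHDC2, an RNA helicase known from the entry of germ cells into meiosis. The IGF2BP proteins are RNA-binding proteins that stabilise messenger RNAs and have been proposed to prefer methylated ones. A growing oocyte stores messenger RNA and later removes it without new transcription, and mice whose oocytes lack Mettl3, Ythdf2 or Ythdc1 have defects in oocyte or early embryo development.

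Each library is titled as an oocyte and will be called one, but no label ties a library to an animal or a culture, and it is not settled that the 3 libraries of a group are 3 oocytes. Each treatment therefore counts as 1 sample, and no comparison below has a test. Differences between the libraries of a group may be technical. The libraries hold between 252267 and 300917 gene counts each. Most low counts were even (from 68.0% to 71.1% of counts from 1 to 20 in a library), and so were 25 of 33 such counts of the 10 genes. Counting intervals are therefore given both for the deposited counts and for counts halved to read pairs. They cover counting error only, and copies made by PCR make the true error larger. Library pairs within a group had a chi-square per degree of freedom from 1.16 to 2.39 on halved counts, so none was taken for a copy of another. Phthalate oocyte 3 stood apart: its pairs had 2.39 and 1.89, the other 4 pairs at most 1.47, and its TMM factor of 0.928 was the lowest. All 12 oocyte markers were present, with from 7214 to 8750 counts per library in sum. The 20 cumulus and granulosa markers summed to between 13 and 39 counts after water and between 10 and 22 after phthalate, mostly from Nr5a2, and 11 of them, Amh, Foxl2 and Ptx3 among them, were at 0 in all 6 libraries. Blood markers were at 0, and the theca, stroma and immune markers had at most 4 counts in a library.

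The levels of the 10 genes spanned a wide range, and in each group Igf2bp2 stood above all others. Levels are given as CPM, counts per 1000000 gene counts after scaling of the libraries by TMM factors (trimmed mean of M-values, which corrects for differences in composition). To compare genes, CPM was divided by the length in kilobases of the longest annotated transcript. On that scale Igf2bp2 averaged 92.0 CPM per kilobase after water (range 84.7 to 97.6) and 93.6 after phthalate (88.0 to 103). It made up 50.0% of the summed level of the 10 genes with water and 50.2% with phthalate, with single oocytes between 44.0% and 57.6%. Igf2bp2 ranked above 93.6% of 11855 protein-coding genes detected in the study, by its level after water. The next gene, Igf2bp3, was lower by a factor of 3.77 with water and 4.21 with phthalate, and its range did not reach that of Igf2bp2.

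Below Igf2bp2 the order could only be told in part. After water it ran from Igf2bp3 (24.4 CPM per kilobase) through Ythdf3 (20.04), Ythdf2 (14.9), Ythdc1 (13.1), Mettl3 (9.66), Mettl14 (5.81), Ythdf1 (2.85) and Ythdc2 (0.946) to Igf2bp1 (0.267). Each of these 8 neighbouring pairs overlapped in range over the 3 oocytes. After phthalate Igf2bp3 (22.2), Mettl3 (15.6), Ythdf2 (15.05), Ythdc1 (15.03) and Ythdf3 (14.8) also overlapped with their neighbours. There Mettl14 (6.54) lay below Ythdf3 with a gap between the ranges, and so did Ythdf1 (3.03) below Mettl14. Ythdf1, Ythdc2 (0.307) and Igf2bp1 (0.155) had too few counts to be ranked among themselves. Igf2bp2 was first with each of the 3 lengths tried, while the middle places depended on the length. The gap between Ythdf3 and Mettl14 after phthalate was seen only with the longest transcript, and their ranges overlapped with either of the other lengths. With the mean length of coding transcripts Ythdf2 was second with water (32.9 CPM per kilobase). The longest transcripts of Mettl3, Ythdc1 and Igf2bp2 are annotated as not translated normally (nonsense-mediated decay for Mettl3, retained intron for the other two).

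**Figure D1:**
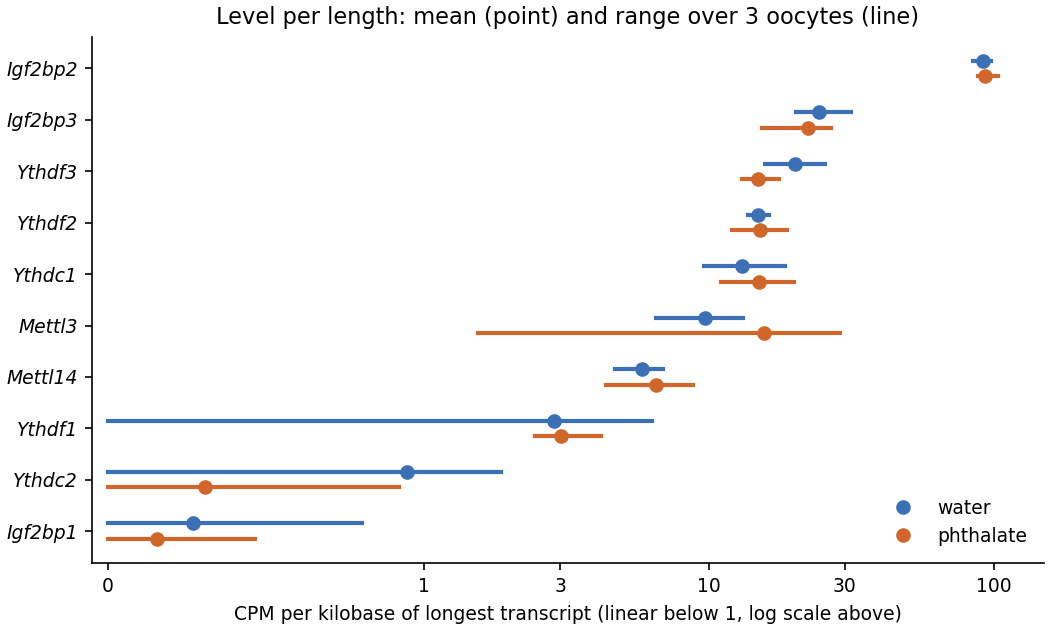
Level of each gene in CPM per kilobase of its longest transcript (horizontal axis, linear below 1 and logarithmic above), with the mean as a point and the range over 3 oocytes as a line, for water (blue) and phthalate (orange). Igf2bp2 lies apart on the right, near 92.0, and the ranges of most other neighbours overlap.

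Between the groups, no writer or reader that passed the filter on low counts had a ratio past 1.5-fold, but only for Igf2bp2 did the counting intervals, on counts and on read pairs, stay inside 1.5-fold. Of the 10 genes, 6 passed the filter, and 4 (Mettl3, Ythdf1, Ythdc2 and Igf2bp1) did not. The log2 ratios of phthalate over water of those 6 lay between -0.44 and 0.20, with a median of 0.017, beside a median of 0.024 over all 4644 genes that passed. Past 1.5-fold (0.585 on the log2 scale), 0 of the 6 were higher and 0 were lower with phthalate, where 7.34% of all 4644 genes were higher and 7.64% lower. Ythdf3 was past it on the lower side, making 1 of the 6, without water oocyte 2 or without phthalate oocyte 3. No share over all genes is given with an oocyte left out, so that count has no background. Leaving out phthalate oocyte 3, which stood apart, gave log2 ratios of 0.41 for Mettl14, 0.024 for Ythdf2, -0.59 for Ythdf3, -0.068 for Ythdc1, 0.055 for Igf2bp2 and 0.053 for Igf2bp3. For 0 of the 6 were the CPM values of the 3 phthalate oocytes all above or all below those of the 3 water oocytes. Among all 4644 genes the phthalate oocytes were all higher for 5.62% and all lower for 4.57%. With 6 genes these counts do not set the writers and readers apart from the background. Over all 10 genes, 1 (Mettl3) was past 1.5-fold higher and 1 (Ythdc2) lower. Of the 12804 genes with a count, 21.5% were past 1.5-fold higher and 18.1% lower without a filter. A ratio of RNA per library does not separate a change per oocyte from a change in the total RNA it is divided by.

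**Figure D2:**
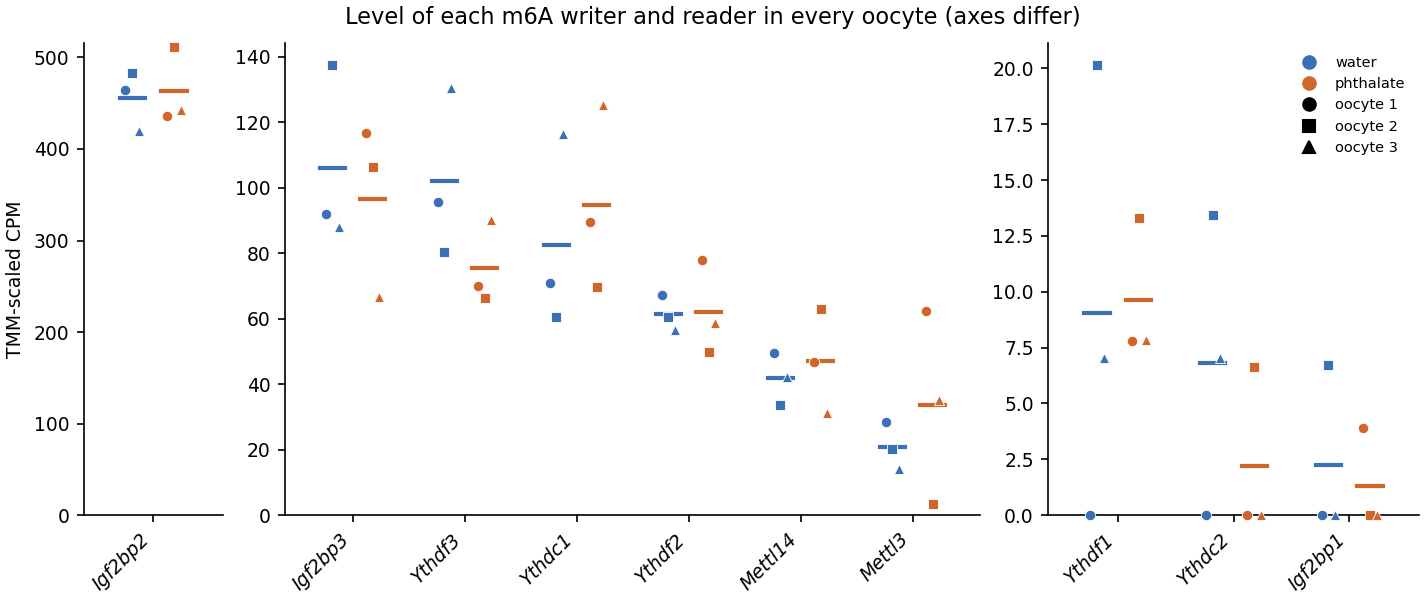
TMM-scaled CPM of each gene in every oocyte (vertical axes, different in the 3 panels), with water in blue, phthalate in orange, a marker shape for each oocyte number and a bar at the group mean. The 2 groups overlap for all 10 genes, and Mettl3 has the widest spread relative to its level among the genes in the middle panel.

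The writers were present at low counts. Mettl14 (chromosome 3, 123368297 to 123386108, minus strand) had 14, 10 and 12 counts for oocytes 1, 2 and 3 after water and 12, 19 and 8 for oocytes 1, 2 and 3 after phthalate. In CPM these were 49.6, 33.6 and 42.3 against 46.7, 63.1 and 31.4. Phthalate oocytes 2 and 3 were the highest and the lowest of all 6, so the water values lay inside the phthalate range. Sums of 36 and 39 counts gave a log2 ratio of 0.20 (95% interval -0.49 to 0.90, on read pairs -0.80 to 1.21).

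Mettl3, the catalytic subunit, was the most uneven of the 7 genes averaging 5 or more counts per oocyte. It lies on chromosome 14 (52294841 to 52305128, minus strand). Its counts were 8, 6 and 4 after water and 16, 1 and 9 after phthalate, which is 28.3, 20.1 and 14.1 CPM against 62.3, 3.32 and 35.3 CPM. Phthalate oocytes 1 and 3 lay above every water oocyte and phthalate oocyte 2 lay below every one. The sums were 18 counts (95% Poisson interval 10.7 to 28.4) and 26 counts (17.0 to 38.1). Their log2 ratio of 0.62 was past 1.5-fold, although the gene did not pass the filter, with an interval from -0.30 to 1.57 and from -0.72 to 2.02 on read pairs. Leaving out phthalate oocyte 1 gave -0.21, and leaving out phthalate oocyte 2 gave 1.22. Neither the direction nor the size is therefore given by these libraries. Of all genes with a count, 21.5% were past 1.5-fold higher without a filter.

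The scatter of Mettl3 over the 6 oocytes can be set beside that of other genes. Its dispersion index, the chi-square per degree of freedom of read pairs around an even level, was 2.16. The 2045 genes with a mean count within 1.5-fold of that of Mettl3 had a median of 0.961, with 90% of them between 0.266 and 2.45. Mettl14 had an index of 0.433, where 2040 like genes had a median of 0.993. Summed as a pair, the writers had 22, 16 and 16 counts after water and 28, 20 and 17 after phthalate. The log2 ratio of the pair was 0.35 (-0.19 to 0.90), and the groups overlapped.

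Because both genes come from the same library, the share of Mettl3 in the pair needs no scaling between libraries. It was 36.4%, 37.5% and 25% after water. After phthalate it was 57.1%, 5.00% and 52.9%. Of the summed counts it was 33.3% with water (95% exact binomial interval 21.1 to 47.5, on read pairs 16.5 to 54.0) and 40.0% with phthalate (28.0 to 52.9, on read pairs 23.3 to 58.6). The phthalate value was 27.0% without phthalate oocyte 1 and 55.6% without phthalate oocyte 2.

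One neighbour bears on the counts of Mettl3. The annotation places Tox4, which encodes a chromatin protein, on the opposite strand, and 18.4% of the exonic bases of Mettl3 lie in exons of Tox4. Whether the counting used strand is not given in the sources used here, so reads from the shared stretch cannot be told apart. Tox4 had 6, 4 and 5 counts after water and 10, 7 and 9 after phthalate. Its 3 phthalate values in CPM lay above its 3 water values, as for 4.22% of genes without a filter, and its log2 ratio was 0.88 (-0.090 to 1.90). The part of this overlap in the values of Mettl3 was not tested.

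The cytoplasmic readers YTHDF1, YTHDF2 and YTHDF3 are close relatives, and the first question was whether reads can be assigned to one of them. Between the longest coding transcripts of GENCODE M21, the longest identical stretch was 22 bases for Ythdf1 and Ythdf2 and 17 bases for each of the other pairs, against reads of 150 bases. The stretch shared by Ythdf1 (bases 948 to 969 of its transcript) and Ythdf2 (bases 1101 to 1122) is coding in both. It is shown 5′ to 3′ with 20 bases on each side, in capitals where the 2 transcripts are identical without a break; 11 of the 40 flanking positions differ.
Ythdf1: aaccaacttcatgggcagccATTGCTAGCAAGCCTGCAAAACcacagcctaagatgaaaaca
Ythdf2: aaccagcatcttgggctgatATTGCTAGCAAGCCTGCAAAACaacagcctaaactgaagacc
No 75-base word of any annotated transcript of Ythdf1 or Ythdf3 occurs in a transcript of another gene. Of the words of Ythdf2, 3.23% do, in the annotated genes Gm6823 and Gm8401.

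Ythdf2 showed no more scatter than counting gives. It encodes the YTHDF protein best known for sending methylated messenger RNA to decay, and lies on chromosome 4 (132184912 to 132212303, minus strand). It had 19, 18 and 16 counts after water and 20, 15 and 15 after phthalate, or 67.3, 60.4 and 56.4 CPM against 77.8, 49.8 and 58.8 CPM. The phthalate oocytes held both the highest and the lowest value. Sums of 53 and 50 counts gave a log2 ratio of 0.0029 (-0.58 to 0.59, on read pairs -0.85 to 0.85). Its dispersion index over the 6 oocytes was 0.209, below the 5th percentile (0.279) of 1930 genes of like mean count.

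Ythdf3 had the lowest ratio of the 6 genes that passed the filter. It encodes the third YTHDF reader and lies on chromosome 3 (16183212 to 16217037, plus strand). Its counts were 27, 24 and 37 after water and 18, 20 and 23 after phthalate, or 95.7, 80.5 and 130 CPM against 70.0, 66.4 and 90.1 CPM. Phthalate oocytes 1 and 2 lay below all water oocytes, and phthalate oocyte 3 lay above water oocyte 2. Sums of 88 and 61 counts gave a log2 ratio of -0.44 (-0.94 to 0.046, on read pairs -1.16 to 0.26). It was between -0.59 and -0.23 when each oocyte was left out in turn, and just past 1.5-fold without water oocyte 2 or without phthalate oocyte 3. Without the latter, both phthalate values left lay below all water values, but no share over all genes is given for that setting. For 2336 tested genes whose mean count lay between 20 and 100, 90% of the ratios lay between -0.56 and 0.58, so the ratio of Ythdf3 is inside that range.

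Ythdf1 was near the limit of detection. It encodes the YTHDF reader first linked to translation and lies on chromosome 2 (180904377 to 180920949, minus strand). It had 0, 6 and 2 counts after water and 2, 4 and 2 after phthalate, a sum of 8 in each group (95% Poisson interval 3.45 to 15.8). A count of 0 in a library allows up to 3 counts, which is from 9.96 to 11.8 CPM in these libraries, so single oocytes cannot be ranked at this level. The log2 ratio of 0.087 had an interval from -1.52 to 1.70, and it was 1.48 without water oocyte 2 and -0.48 without water oocyte 1.

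Within the family, Ythdf3 held the largest share of the counts in both groups. It took 59.1% with water (50.7 to 67.0) and 51.3% with phthalate (41.9 to 60.5). Ythdf2 took 35.6% (27.9 to 43.8) and 42.0% (33.0 to 51.4), and Ythdf1 took 5.37% (2.35 to 10.3) and 6.72% (2.95 to 12.8). In phthalate oocyte 1 Ythdf2 (50.0%) stood above Ythdf3 (45%), and in the other 5 oocytes Ythdf3 was higher. These shares are of counts and depend on length, since the longest transcript of Ythdf3 has 5102 bases and that of Ythdf2 has 4129.

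**Figure D3:**
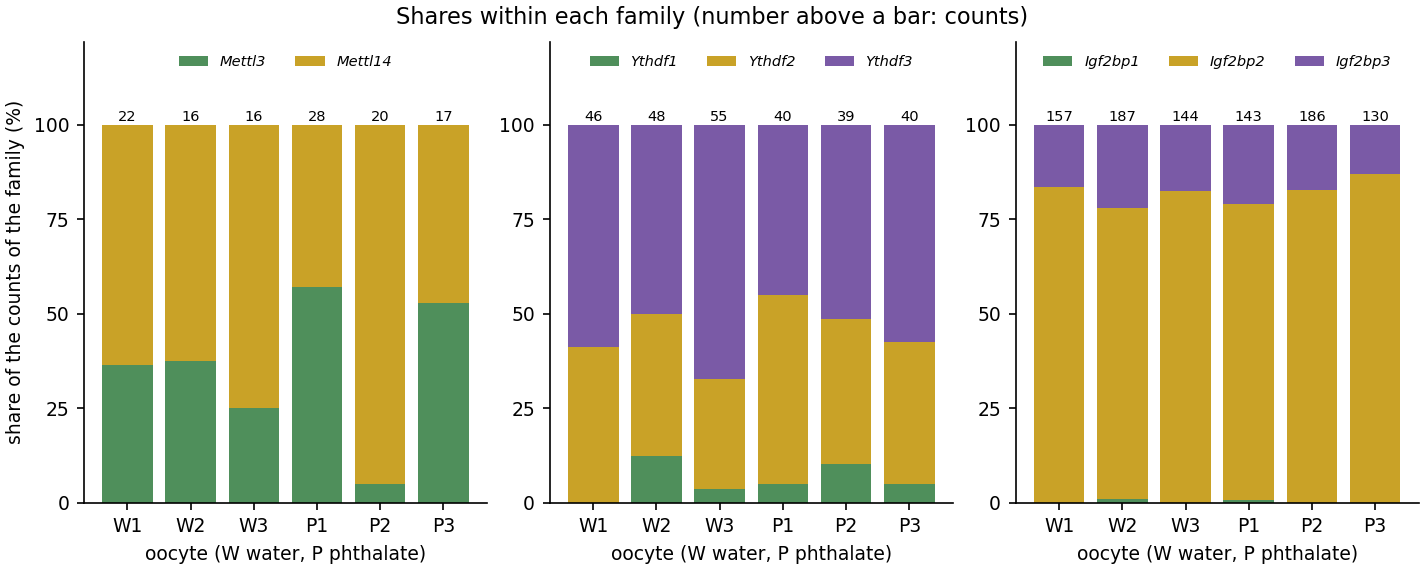
Share of the counts of each family held by each gene (vertical axis, percent) in every oocyte (W water, P phthalate), with the number of counts above each bar. Mettl3 takes from 5.00% to 57.1% of the writer pair, and Igf2bp2 takes from 77.0% to 86.9% of its family.

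Ythdc1, the nuclear reader, was measured at a count similar to that of Ythdf3. It lies on chromosome 5 (86804221 to 86836659, plus strand). Its counts were 20, 18 and 33 after water and 23, 21 and 32 after phthalate, or 70.9, 60.4 and 116 CPM against 89.5, 69.7 and 125 CPM. Oocyte 3 was the highest in each group, and oocytes of different groups share only that number. Sums of 71 and 76 counts gave a log2 ratio of 0.19 (-0.30 to 0.67, on read pairs -0.51 to 0.89). The annotated noncoding gene Gm43055 overlaps 4.62% of the exonic bases of Ythdc1 on the same strand.

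Ythdc2, the helicase of meiotic entry, was found in 3 of the 6 oocytes. It lies on chromosome 18 (44827746 to 44889724, plus strand). It had 0, 4 and 2 counts after water and 0, 2 and 0 after phthalate. The sums were 6 (2.20 to 13.1) and 2 (0.242 to 7.22), a log2 ratio of -1.50, past 1.5-fold in size but not past the filter, with an interval from -4.84 to 0.99. It was -0.52 without water oocyte 2, inside 1.5-fold, and -2.55 after thinning of the libraries to one total. Without phthalate oocyte 2 the phthalate sum was 0, which only bounds the ratio at -0.25 or below. At this depth no difference could be detected, and 18.1% of all genes with a count were past 1.5-fold lower without a filter. Over the 5 YTH genes together the counts were 66, 70 and 90 after water and 63, 62 and 72 after phthalate. The log2 ratio of that sum was -0.11 (-0.39 to 0.17), and the groups overlapped.

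Among the IGF2BP readers, Igf2bp2 carried most of the RNA in every oocyte. Igf2bp2 lies on chromosome 16 (22059009 to 22163299, minus strand). Its counts were 131, 144 and 119 after water and 112, 154 and 113 after phthalate, or 464, 483 and 420 CPM against 436, 511 and 443 CPM. Oocyte 2 was the highest in each group, and the other 2 phthalate values lay inside the water range. Sums of 394 and 379 counts gave a log2 ratio of 0.031 (-0.18 to 0.24, on read pairs -0.26 to 0.33). This is the narrowest interval of the 9 genes with a ratio, and its read-pair form stays within a 1.5-fold difference in either direction. The dispersion index of Igf2bp2 was 0.357, below the 5th percentile (0.404) of 363 genes of like mean count.

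Igf2bp3, which like Igf2bp1 is best known from embryos and tumours, was the second IGF2BP gene. It lies on chromosome 6 (49085223 to 49214957, minus strand). Its counts were 26, 41 and 25 after water and 30, 32 and 17 after phthalate, or 92.1, 138 and 88.2 CPM against 117, 106 and 66.6 CPM. Water oocyte 2 was the highest and phthalate oocyte 3 the lowest, with the other 4 in between from both groups. Sums of 92 and 79 counts gave a log2 ratio of -0.13 (-0.59 to 0.32, on read pairs -0.78 to 0.51), and it was 0.11 without water oocyte 2. Exons of Malsu1, which encodes a factor of mitochondrial ribosome assembly, cover 18.7% of the exonic bases of Igf2bp3 on the opposite strand. Malsu1 had 23, 10 and 4 counts after water and 4, 13 and 7 after phthalate. The part of that overlap in the counts of Igf2bp3 was not tested.

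Igf2bp1 was at the floor of detection. It lies on chromosome 11 (95957163 to 96005940, minus strand) and had 0, 2 and 0 counts after water and 1, 0 and 0 after phthalate. Both sums, 2 and 1, are at or under the 3 counts that a 0 allows, so no ratio is given. In its family Igf2bp1 took 0.410% of the counts with water (0.0497 to 1.47) and 0.218% with phthalate (0.00552 to 1.21).

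Igf2bp1 and Igf2bp2 share too little sequence for a whole read to fit both. The longest stretch that their longest coding transcripts share without a break has 20 bases, coding in both (bases 416 to 435 of Igf2bp1 and 448 to 467 of Igf2bp2). It is shown 5′ to 3′ in capitals with 20 bases on each side, where 12 of 40 flanking positions differ.
Igf2bp1: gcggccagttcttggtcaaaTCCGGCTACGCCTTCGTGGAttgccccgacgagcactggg
Igf2bp2: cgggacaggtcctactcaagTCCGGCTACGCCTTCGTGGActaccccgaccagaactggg
No 75-base word of an Igf2bp2 transcript occurs in a transcript of another gene. The share of Igf2bp2 in the family was 83.4%, 77.0% and 82.6% after water and 78.3%, 82.8% and 86.9% after phthalate. In the sums it was 80.7% (77.0 to 84.1) and 82.6% (78.8 to 85.9). The 3 genes together had a log2 ratio of -0.0014 (-0.19 to 0.19) from 488 and 459 counts.

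The genes most like Igf2bp2 over the 6 libraries were Vrk1, Rab8a and Dctn3. They had the highest Pearson r of log2(CPM + 1) with Igf2bp2 (0.969, 0.969 and 0.954) among 2783 other genes averaging 20 or more counts, with CPM from library totals. This is a description over 6 points that share library and depth, and the highest of so many values is high by selection. All 3 have few counts beside Igf2bp2, with 28, 22 and 33 in water oocyte 1 for Vrk1, Rab8a and Dctn3.

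**Figure D4:**
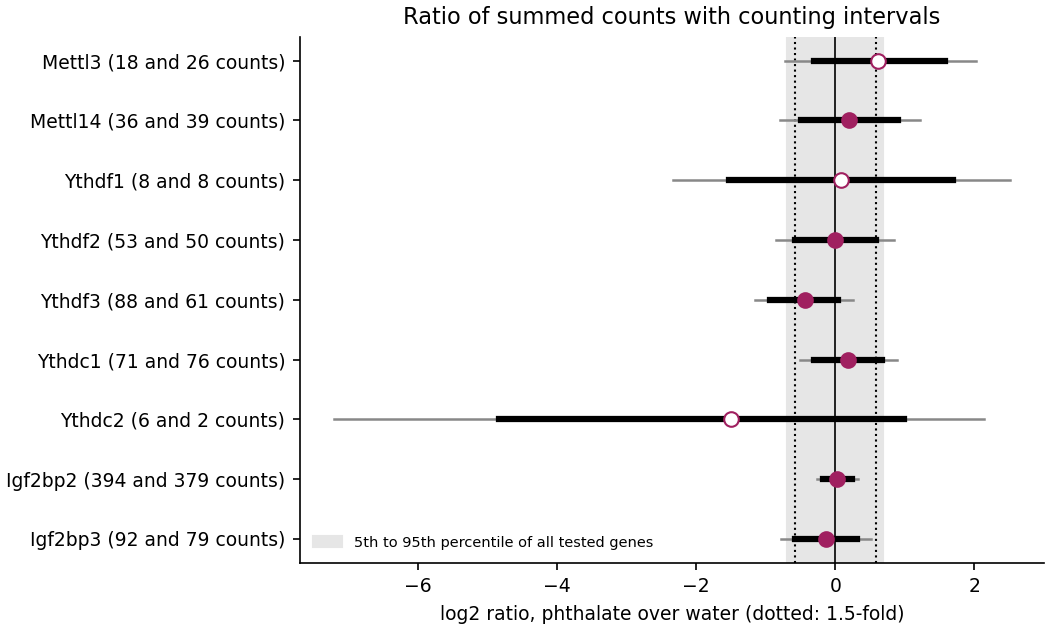
Log2 ratio of phthalate over water (horizontal axis) for the 9 genes with more than 3 counts in a group, as points filled where the gene passed the filter; thick lines are 95% counting intervals of the counts and thin lines those of read pairs. The grey band holds 90% of the 4644 tested genes, dotted lines mark 1.5-fold, and the interval of each of the 9 genes includes 0.

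The other parts of the m6A machinery were taken from 6 lists with 49 genes, of which 27 passed the filter. Of these, 1 was past 1.5-fold higher with phthalate and 1 lower, with a median log2 ratio of 0.045 beside 0.024 over all genes tested. Of all 4644 genes, 7.34% were past 1.5-fold higher and 7.64% lower. With 27 genes these counts do not set the lists apart from that background. The count of lower genes was 5 without phthalate oocyte 3, 2 without water oocyte 1 or phthalate oocyte 2, and 0 without water oocyte 2. The count of higher genes was 3 without phthalate oocyte 3, 2 without water oocyte 1, water oocyte 3 or phthalate oocyte 1, and 0 without phthalate oocyte 2. No share over all genes is given with an oocyte left out, so these counts cannot be set beside a background.

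Of 6 regulatory subunits that hold and direct the writer pair 3 passed the filter, each with more counts than the pair itself, and 0 of them were past 1.5-fold. Zc3h13, whose product keeps the complex in the nucleus, had 131, 158 and 197 counts after water and 213, 174 and 163 after phthalate, a log2 ratio of 0.27 (0.087 to 0.44, on read pairs 0.011 to 0.52). Its CPM values overlapped, with 2 phthalate oocytes below water oocyte 3. Wtap, the adaptor that brings the pair to nuclear speckles, had a log2 ratio of -0.043 (-0.44 to 0.35) from 116 and 106 counts. Virma, the scaffold that guides methylation toward the end of the transcript, had -0.25 (-0.68 to 0.19) from 102 and 81 counts. The other 3 subunits had a mean count between 2.17 and 6.33 and did not pass.

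Of the erasers, which remove the mark, Alkbh5 was measured well and Fto was not. Alkbh5 had 67, 91 and 77 counts after water and 99, 102 and 70 after phthalate. Phthalate oocytes 1 and 2 (385 and 339 CPM) lay above all water oocytes, and phthalate oocyte 3 (274 CPM) lay among them. The log2 ratio was 0.29 (0.035 to 0.55, on read pairs -0.075 to 0.66). Fto had 6 counts with water and 4 with phthalate.

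Among 6 other RNA methyltransferases and cofactors, 3 passed and Trmt112 was past 1.5-fold. Trmt112, which activates several methyltransferases, METTL5 among them, had 13, 16 and 3 counts after water and 12, 25 and 11 after phthalate. Its log2 ratio was 0.67 (-0.0032 to 1.36, on read pairs -0.30 to 1.68), and water oocyte 3 was low. It was 0.23 without water oocyte 3 and 0.27 without phthalate oocyte 2, both inside 1.5-fold. Over all genes tested 7.34% were past 1.5-fold higher. Mettl16, whose product methylates the U6 snRNA, had a log2 ratio of 0.087 (-0.65 to 0.83). Pcif1, which marks adenosine next to the cap, had 33 and 23 counts and did not pass.

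Of 16 other proposed readers 12 passed, with 0 past 1.5-fold, where the background was 7.34% higher and 7.64% lower, and a median log2 ratio of 0.17. The highest by CPM were G3bp2, Hnrnpc and Fxr1. G3bp2, a stress granule protein, had a log2 ratio of 0.21 (0.098 to 0.33, on read pairs 0.049 to 0.37) from 1194 and 1302 counts, and its groups overlapped. Fxr1, a relative of the fragile X protein, had a log2 ratio of -0.043 from 244 and 223 counts. For Hnrnpc, which binds RNA unfolded by the mark, the 3 phthalate values (459, 485 and 474 CPM) lay above the 3 water values (429, 416 and 458 CPM), the nearest by less than 1 CPM, with a log2 ratio of 0.12. Such an order was found for 5.62% of all genes tested.

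Of 12 partners through which YTH proteins act, 6 passed, with 1 lower past 1.5-fold and a median log2 ratio of -0.31. The gene past 1.5-fold was Nxf1, the export receptor for messenger RNA that YTHDC1 is known to work with. It had 26, 40 and 31 counts after water and 14, 27 and 14 after phthalate, or 92.1, 134 and 109 CPM against 54.5, 89.7 and 54.9 CPM. All 3 phthalate values were lower, phthalate oocyte 2 by a small margin, and the log2 ratio was -0.73 (-1.24 to -0.24, on read pairs -1.46 to -0.028). Without water oocyte 2 it was -0.57, inside 1.5-fold. Of all genes tested 7.64% were past 1.5-fold lower, and 4.57% had all phthalate values below all water values. Cnot1, the scaffold of the deadenylase that YTHDF2 recruits, had -0.40 (-0.84 to 0.026) from 111 and 79 counts, and Upf1, a decay helicase, had 0.045 from 176 and 171. Of 7 genes of methyl donor supply 2 passed. Mat2b, a regulatory subunit of S-adenosylmethionine synthesis, had a log2 ratio of -0.32 (-0.46 to -0.17, on read pairs -0.53 to -0.11) from 877 and 663 counts, and its groups overlapped. Mat2a, its catalytic partner, had a log2 ratio of 0.11 from 55 and 56 counts. Ahcyl2, a relative of the enzyme that clears S-adenosylhomocysteine, had 21 and 23 counts and did not pass. Of the 22 pathway genes that did not pass the filter, 19 had a ratio, and all those past 1.5-fold are named here after their values were seen. The 6 higher with phthalate were Ahcy (that enzyme itself, 11 and 27 counts), Ahcyl1 (8 and 22), Rida (4 and 14), Fmr1 (0 and 8), Zcchc4 (1 and 5) and Nudt21 (2 and 5). The 4 lower were Rbm15 (19 and 11), Cbll1 (10 and 3), Mettl5 (6 and 3) and Meioc (4 and 2). Without a filter, 21.5% of the 12804 genes with a count were past 1.5-fold higher and 18.1% lower. These shares include the 4644 genes that passed, of which 7.34% were higher and 7.64% lower, so the shares among genes that did not pass are larger. The groups did not overlap for 1 of the 22, Ahcyl1, beside 4.22% of all genes higher in this way without a filter.

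**Figure D5:**
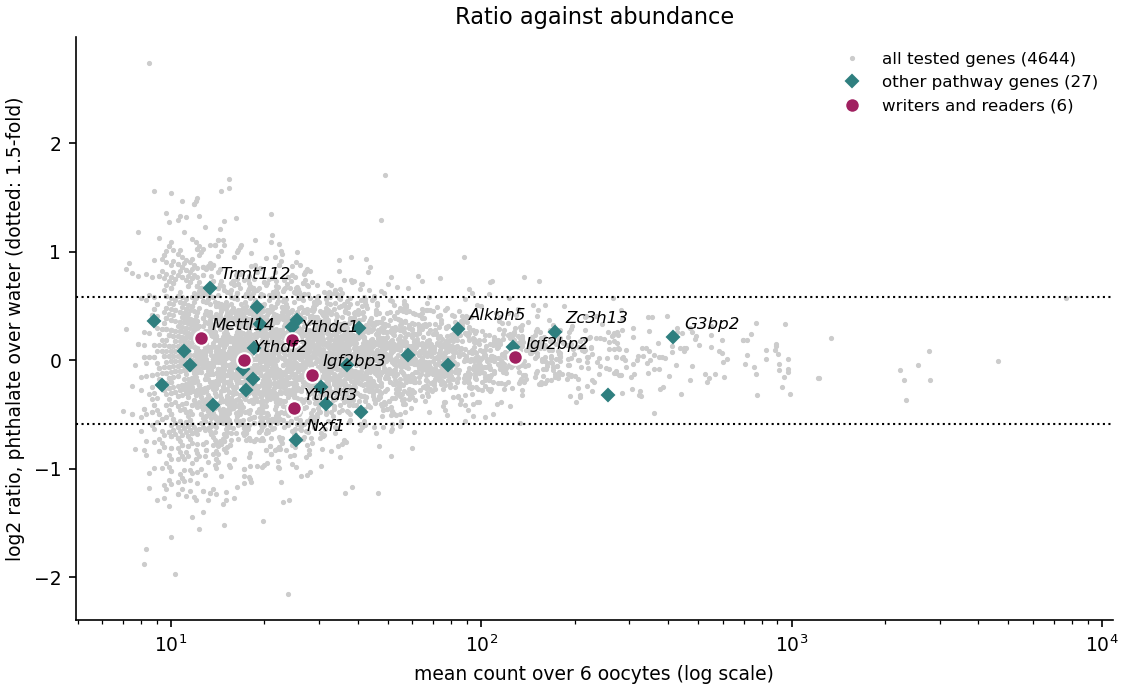
Log2 ratio of phthalate over water (vertical axis, dotted lines at 1.5-fold) against the mean count over 6 oocytes (horizontal axis, logarithmic) for 4644 tested genes (grey), 6 writers and readers (purple) and 27 other pathway genes (green). The 6 writers and readers lie between -0.44 and 0.20, and Trmt112 and Nxf1 are the 2 pathway genes outside the lines.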

How the data were processed

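Single GV oocytes were profiled with Smart-seq3 (oligo(dT) priming, template switching, PCR) and sequenced as read pairs of 150 bases. The table that the authors deposited holds raw counts for 25239 gene symbols and 92 ERCC spike-in RNAs. The submitters' processing notes name cutadapt, Trimmomatic, HISAT2, DESeq2 and mm10; the counting tool, annotation, use of strand and molecular identifiers are not given in the sources used here.

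Libraries were scaled by TMM (edgeR 4.0.16, R 4.3.3) without ERCC. Genes were compared by size only, among the 4644 passing filterByExpr (minimum count 10, minimum total 15). Group sums gave log2 ratios without a pseudocount (a sum of 0 set to 3 counts) with exact Clopper-Pearson intervals (95%). Called means past 1.5-fold. The calculation was tested on simulated counts. Transcript lengths, coordinates and sequences are from GENCODE M21 (GRCm38, which is mm10), and 24366 of 25239 symbols had a length. Named pathway genes are those past 1.5-fold and up to 3 of the highest by CPM in a list. Members and lists were chosen with earlier results of these data known. Libraries range from 252267 to 300917 counts. Alternatives were other scalings (library totals, DESeq2 1.42.0 size factors, ERCC), thinning, filters, lengths and leaving out each oocyte.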

Additional observations from a re-analysis of the deposited data

How the results depend on the processing

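No paired analysis was possible because a treatment counts as 1 sample, so that nothing was tested. Ratios of single genes and of the 3 classes stayed within their counting intervals under the other scalings, thinning (1 seeded draw) and the mean over oocytes; the median was run for single genes other than Ythdc2 and Igf2bp1, with the same outcome. ERCC scaling moved the median of all genes from 0.024 to 0.12. Leaving out 1 oocyte reversed Mettl3 (from -0.21 to 1.22) and moved its share of the writer pair with phthalate (27.0% to 55.6%). It also moved Ythdf1 (-0.48 to 1.48) and Ythdc2 (-2.07 to -0.25, the upper end a bound from a phthalate sum of 0), both with few counts, and it took Ythdf3 (-0.59) just past 1.5-fold. The background past 1.5-fold was 4.24% higher and 3.84% lower at a mean count of at least 20, 21.5% and 18.1% with no filter, and 1.25% and 1.46% past 2-fold. Other pathway genes past 1.5-fold higher numbered 2 with ERCC scaling and 0 at a mean count of at least 20. Leaving out 1 oocyte gave 0 to 3 other pathway genes higher and 0 to 5 lower, with no share over all genes given for those settings. By level per kilobase, 4 genes changed rank in each group with the mean coding transcript length. With the longest coding length (chosen after the data were seen, like the median over oocytes) 4 changed with water and 7 with phthalate. Leaving out 1 oocyte changed 0 to 2 ranks with water and 4 to 6 with phthalate. The causes were not tested. Lengths of RefSeq proteins were not used. A single library resolves a gene only above about 3 counts.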
